A study of Arabidopsis thaliana with 12 samples.

Results

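The transcripts of a cfh1 mutant of Arabidopsis thaliana were compared with those of a CFH1 decoy line, over 3 libraries of whole seedlings for each. These 6 libraries are part of a series of 12 libraries and 4 genotypes, and wild-type Col-0 did not enter the comparison. All genes with enough counts for a test were taken, which was 20660 of the 27588 genes in the deposited table. The labels give the ecotype Columbia 0 for both lines, the genotype cfh1 mutant (allele cfh1-1) for one and CFH1 decoy for the other. Seedlings had 7 days of 12 h light and 12 h dark, were then kept under continuous red light, and were harvested on day 12 at zeitgeber time 1, the first hour after subjective dawn. The labels give neither the promoter behind the decoy nor the number of independent lines, so an effect of CFH1 cannot be told apart from any other difference between the 2 lines. Whether the decoy line is Columbia 0 throughout its genome was not tested, and the genes with almost no counts in a single line, given further down, bear on that label. The labels do not say that libraries of a line came from separate cultures, and p-values then describe only how far these libraries spread.

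F-box proteins are the substrate receptors of SCF ubiquitin ligases, which mark chosen proteins for breakdown. A decoy is commonly an F-box protein that has lost its F-box and still holds its targets, so a mutant and a decoy are both used to keep the targets of an F-box protein from being degraded. Red light acts on seedlings through phytochromes, which remove PIF transcription factors and allow leaves to green, while PIF factors and auxin drive stem growth. The series places CFH1 between the clock and growth in red light, and the comparison described here asks how far the transcripts of the mutant and the decoy part from each other.

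The F-box gene AT2G32560 separated the 2 lines. It stood at 14.5, 15.5 and 16.7 CPM (counts put on the same library size by edgeR's TMM factors) in cfh1 replicates 1 to 3 and at 358, 276 and 332 CPM in decoy replicates 1 to 3 (log2 fold change -4.37, SE 0.16, adjusted p 3.37e-06). All log2 fold changes given here are cfh1 over decoy, so that a negative value is a lower level in cfh1. In a scaling over all 12 libraries the gene had 41.0 ± 5.83 CPM in Col-0 (SD, n = 3), between the 2 lines. The sources used here do not pair the name CFH1 with a locus, and this gene is not given here as CFH1. A pair of neighbouring loci on chromosome 1 was almost silent in cfh1. UBP6, a ubiquitin-specific protease gene, had 0.0972, 0.0351 and 0.143 CPM in cfh1 against 53.6, 51.5 and 65.5 CPM in the decoy (log2 fold change -9.16, SE 0.28, adjusted p 9.58e-07). AT1G51720, the next locus, had 0.227, 0.141 and 0.343 CPM against 22.9, 33.1 and 29.2 CPM (log2 fold change -6.85, SE 0.29, adjusted p 4.49e-06). Col-0 had 49.4 ± 1.81 CPM of UBP6 and 33.0 ± 1.24 CPM of AT1G51720 in the 12-library scaling, so it was cfh1 that stood apart at both. MRD1 and HEI10, another neighbouring pair, were lower in cfh1 than in the decoy. Their log2 fold changes were -8.86 and -1.79 (adjusted p 8.52e-07 and 0.00361). In the 12-library scaling MRD1 had 0.2172 CPM in cfh1, 102.2 in the decoy, 43.53 in Col-0 and 1.877 with PIF3 over-expression. HEI10 had 1.096, 3.808, 8.668 and 1.675 CPM in the same order. Low levels of this pair were therefore not particular to cfh1. The decoy was above Col-0 for MRD1 and below it for HEI10.

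Total counts ran from 21914394 to 34345088 per library, and 21832 to 22746 genes had at least 1 count. The first principal component of log2 CPM held 73.1% of the variance and placed all cfh1 libraries on one side and all decoy libraries on the other. Libraries of cfh1 lay closer together than those of the decoy: rank correlations were 0.985 to 0.994 within cfh1, 0.973 to 0.980 within the decoy and 0.927 to 0.952 between the lines. The biological coefficient of variation was 0.143 among the cfh1 libraries and 0.247 among the decoy libraries. The 10 most abundant genes took 7.65% to 8.99% of the counts in the decoy and 5.88% to 6.26% in cfh1. Whole-seedling markers were present in both lines. Those of root (8 genes) summed to 3566 to 4560 CPM in cfh1 and 5145 to 6734 CPM in the decoy, those of mesophyll (4 genes) to 13290 to 19430 and 23340 to 31150 CPM, and those of guard cells (5 genes) to 65.6 to 71.4 and 41.2 to 54.9 CPM. The 5 embryo and seed genes summed to at most 0.515 CPM, and the meristem genes WUS and CLV3 had none in either line.

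Differences between cfh1 and the decoy reached a large share of the genes tested. At an adjusted p under 0.05, 2522 genes were higher in cfh1 (12.2% of those tested) and 1903 were lower (9.21%), together 4425 (21.4%). At least 2-fold differences made up 1540 of the higher genes (7.45%) and 628 of the lower (3.04%), and at least 4-fold ones 545 and 251. The median absolute log2 fold change of the genes past the test was 0.98, and in 4416 of them all libraries of one line lay beyond all of the other. Libraries did not overlap in 22.8% of the tested genes with cfh1 above and in 20.7% with cfh1 below, so non-overlap alone was common. Counts depended on the libraries: 1225 higher and 637 lower genes passed without cfh1 replicate 1, 1434 and 939 without cfh1 replicate 2, and 1608 and 897 without cfh1 replicate 3. With library totals in place of TMM factors the median log2 fold change of all genes moved to 0.23, and 3627 genes were higher and 858 lower, so that 80.87% of the calls were higher in cfh1 against 56.99% with TMM.

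**Figure D1:**
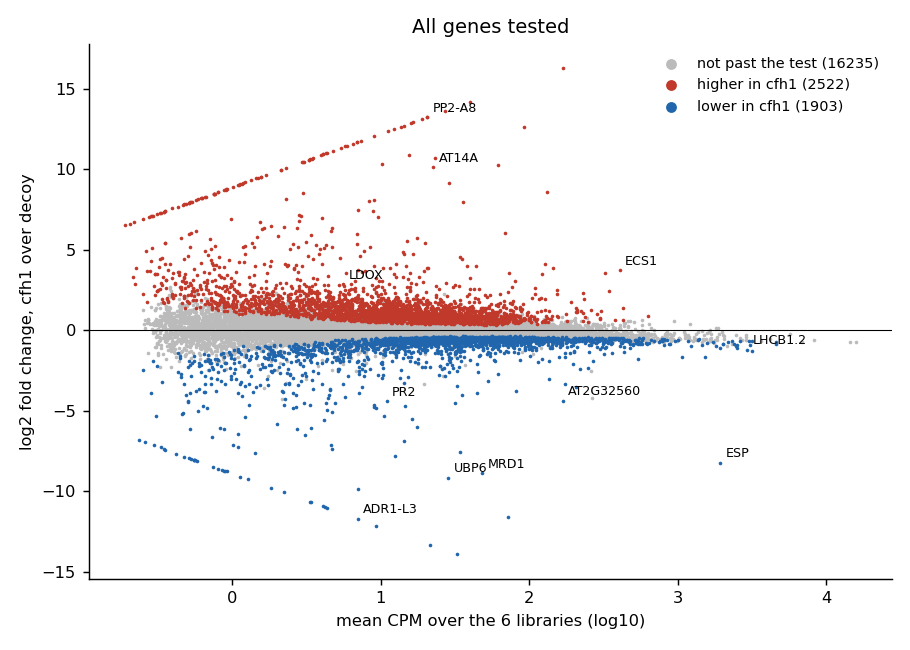
Log2 fold change of cfh1 over decoy (vertical axis) against the mean CPM over the 6 libraries on a log10 scale (horizontal axis), 1 point per gene tested. Red points are the 2522 genes higher in cfh1, blue points the 1903 lower and grey points the other 16235; the straight outer rows of points are genes at or near 0 counts in one of the lines.

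Among genes at 5 CPM or more in both lines, ESP and AT2G32560, given above, had the lowest log2 fold changes of those named. ESP, the epithiospecifier protein that turns glucosinolate breakdown towards nitriles, had 13.2, 16.0 and 9.38 CPM in cfh1 and 4615, 2422 and 4486 CPM in the decoy (log2 fold change -8.22, SE 0.40, adjusted p 8.82e-06). Even the lowest decoy library was far above every cfh1 library, and Col-0 had 12.0 ± 0.743 CPM in the 12-library scaling, where cfh1 had 13.7 ± 3.52. THI2.2, a thionin, was at 12.0, 14.3 and 7.15 CPM against 149, 120.4 and 187 CPM (log2 fold change -3.77, SE 0.28, adjusted p 6.69e-05). AIR1, an auxin-induced root gene, was at 35.6, 32.0 and 31.8 CPM against 383, 155 and 598 CPM (log2 fold change -3.51, SE 0.43, adjusted p 0.00101). The groups did not overlap for either gene, and the decoy libraries spread widely for AIR1. NSP4, a nitrile-specifier gene, SOT12, a sulfotransferase gene, SQE6, a squalene epoxidase gene, and IGMT2, a methyltransferase gene of indole glucosinolates, had log2 fold changes of -2.99, -2.71, -2.58 and -2.58. CAT3, a catalase gene, had 731, 669 and 782 CPM against 2841, 2075 and 2030.5 CPM (log2 fold change -1.67, SE 0.20, adjusted p 0.000849), and FD2, a ferredoxin gene, stood at -1.07 (adjusted p 0.00352).

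On the higher side, ZW9 had 249.9, 259 and 219.7 CPM in cfh1 and 9.58, 18.1 and 14.2 CPM in the decoy (log2 fold change 4.11, SE 0.24, adjusted p 1.99e-05). ECS1 had 913, 855 and 495 CPM against 42.8, 58.8 and 69.0 CPM (log2 fold change 3.73, SE 0.29, adjusted p 8.65e-05). DR4, a gene of the protease inhibitor family, had 651, 513 and 623 CPM against 60.6, 42.7 and 46.1 CPM (log2 fold change 3.58, SE 0.20, adjusted p 1.48e-05). Each cfh1 library exceeded each decoy library several-fold in these genes, and in the 12-library scaling Col-0 had 241 ± 21.1, 818 ± 114 and 578 ± 25.1 CPM where cfh1 had 258 ± 21.6, 804 ± 240.4 and 634 ± 78.0. CYP71A12, a cytochrome P450 of indolic defence compounds, stood at 3.58 (adjusted p 0.00058), and DOX1, an alpha-dioxygenase of oxylipin synthesis, at 2.44 (adjusted p 0.000525). WRR4 and RLM3, resistance genes against white rust and fungal disease, stood at 2.59 and 2.48, the sulfotransferase gene ST4B at 2.59 and the lipase gene ARAB-1 at 2.55. UBQ11, a polyubiquitin gene, had 381, 437 and 334 CPM against 91.8, 65.0 and 70.8 CPM (log2 fold change 2.34, SE 0.18, adjusted p 8.84e-05).

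**Figure D2:**
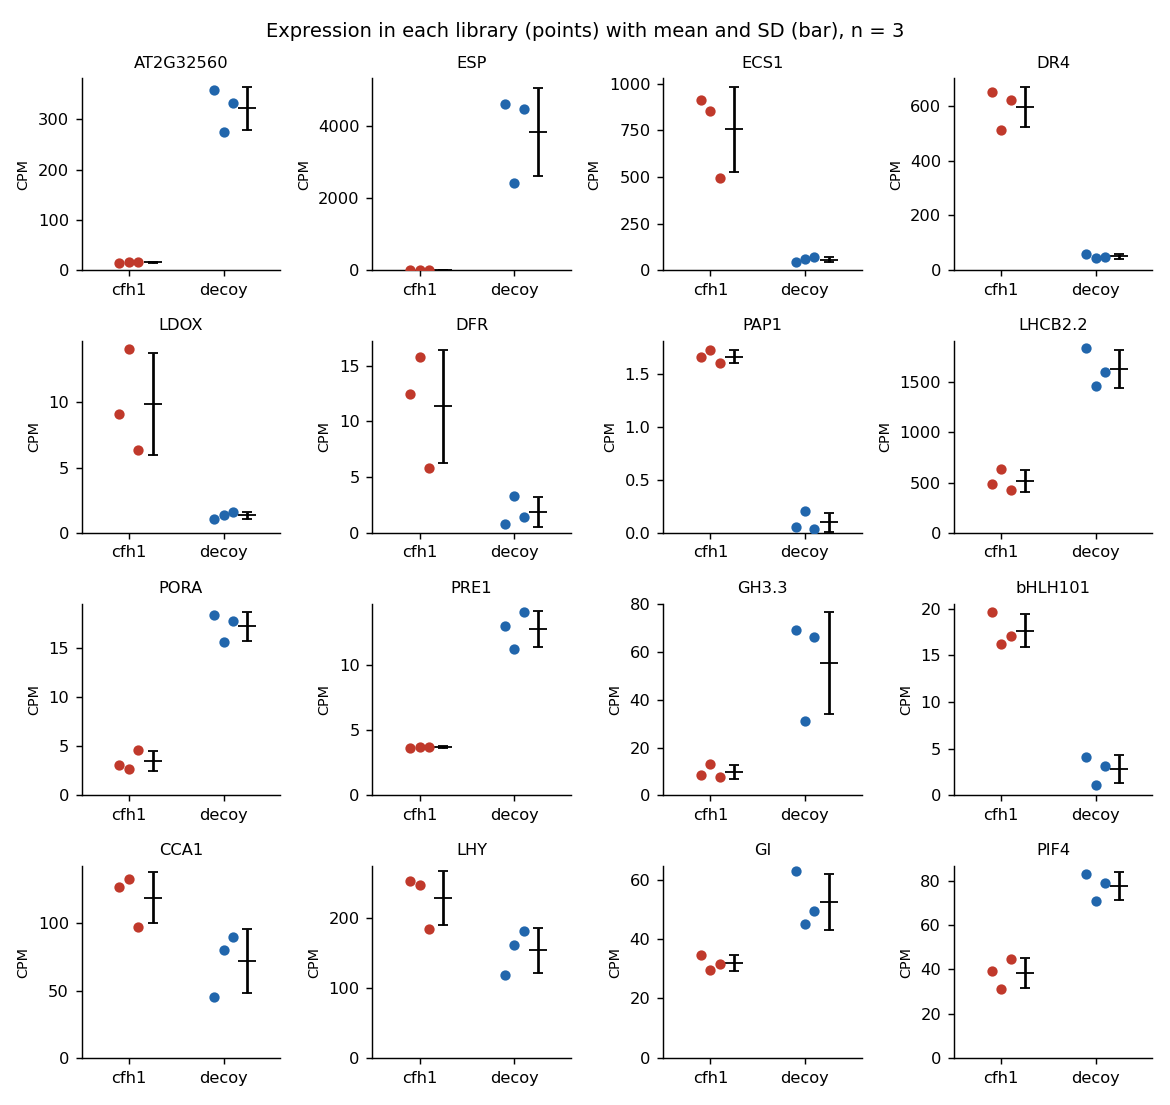
CPM (vertical axis, from 0) of 16 genes in each of the 3 cfh1 libraries (red points) and 3 decoy libraries (blue points), with the mean and SD as black bars, n = 3. AT2G32560, ESP, LHCB2.2, PORA, PRE1 and GH3.3 are lower in every cfh1 library and ECS1, DR4, LDOX, DFR, PAP1 and bHLH101 higher; CCA1 and LHY, which did not pass the test, also show groups apart, but closer together.

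Some genes were expressed in cfh1 and nearly absent from the decoy. At most 3 counts over the 3 decoy libraries were found for 132 genes that passed the test (0.639% of genes tested), 93 of them at 0 in all 3. Each of the 132 had more than 3 counts over the Col-0 libraries, and 131 also did with PIF3 over-expression. PP2-A8, a gene of the phloem-lectin family, had 47.2, 48.2 and 27.8 CPM in cfh1 and no count in any decoy library, which puts it at least 1124-fold higher in cfh1 if 3 counts are taken as the floor of the group. Its neighbours PP2-A6 (at least 187-fold) and PP2-A7 (at least 41.7-fold) were also at 0 counts in all 3 decoy libraries, as was PP2-A3 (at least 190.5-fold). AT14A had 51.1, 32.8 and 52.1 CPM in cfh1 and 3 counts in the decoy, a ratio of 1281 (95% interval 438 to 6212). MLO7 had a ratio of 103 (95% interval 34.9 to 501.5). Of the 132 genes, 33 had a neighbouring locus code in the same set, with 4 in the longest run. How often this occurs in other sets of genes was not counted. A resistance-protein product name was held by 9 of the 132, and by 167 of the 20660 genes tested. The intervals and floors above cover counting error only, and near-identical copies of PP2-A genes and AT14A can share estimated counts.

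The opposite set was smaller. Of the genes past the test, 48 had at most 3 counts over the cfh1 libraries (0.232% of genes tested), 34 of them at 0. For 44 of these the Col-0 libraries also had at most 3 counts, and 28 of the 48 were at 0 in both Col-0 and cfh1. In most genes of both sets the decoy stood apart from Col-0 and cfh1. At these genes, at ESP and at the immune receptor genes a difference in genetic background and an effect of the decoy cannot be told apart. AT1G75945, picked after its values were seen, was an exception. It had 1024 counts over the cfh1 libraries, 0 over the decoy libraries and 29 over the Col-0 libraries. ADR1-L3, a relative of the helper immune receptors, had no count in cfh1 and 14.5, 16.4 and 11.2 CPM in the decoy, at least 443-fold lower in cfh1. CYP96A15, an alkane hydroxylase gene of the stem wax, had 2 counts against 180, and SRS8, HDG9, OFP9 and CAX6 had 0 to 2 counts in cfh1 and 42 to 84 in the decoy. The unnamed loci with the highest levels, picked after their values were seen, were AT4G19240 (65.3 CPM in the decoy) and AT1G24388 (43.3 CPM), both with 0 counts in cfh1 and Col-0. In the other direction AT2G25510 was at 335 CPM in cfh1 with 0 counts in the decoy.

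Immune receptor genes of the NLR type sense pathogen effectors inside the cell. Of 24 tested members, 12 were higher in cfh1 and 2 lower, with a median log2 fold change of 0.62, where all genes tested had a median of 0.00, with 12.2% higher and 9.21% lower. SNC1 had 179, 165 and 156 CPM in cfh1 and 34.7, 49.5 and 39.4 CPM in the decoy (log2 fold change 2.01, SE 0.16, adjusted p 8.99e-05). RPP5 and RPP4, from the same cluster on chromosome 4 as SNC1 and RLM3, stood at 1.46 and 0.58, and these paralogs can share estimated counts. RPP13 (1.94), RPP8 (1.15) and CHS3 (1.08) were higher as well. CSA1, whose locus code neighbours that of CHS3, was lower at 30.3, 28.7 and 29.7 CPM against 62.5, 72.1 and 68.2 CPM (log2 fold change -1.19, SE 0.11, adjusted p 0.000256), and ADR1-L3 was the other lower member. The helper genes ADR1, ADR1-L1 and ADR1-L2 stood at 0.21, -0.23 and -0.31 and did not pass. Leaving out any 1 library left 10 to 15 higher members. Among all 167 tested genes with a resistance-protein product name, a grouping made after values were seen, 67 were higher (40.1%) and 9 lower (5.39%).

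Phloem lectin genes of the PP2 family encode proteins of the phloem sap and their relatives. Of 20 tested members 9 were higher (45.0%, against 12.2% of all genes tested) and 2 lower, with a median log2 fold change of 0.61, and 6 to 11 were higher when single libraries were left out. PP2-B10, an F-box gene with a lectin domain, had 17.0, 15.3 and 17.9 CPM in cfh1 and 1.83, 1.42 and 2.02 CPM in the decoy (log2 fold change 3.25, SE 0.19, adjusted p 2.17e-05). PP2-B13 stood at 2.47 and PP2-B2 at -2.73, so the F-box lectins were split. Of 9 higher members, 4 were the PP2-A genes at 0 counts in the decoy. Of the 2 lower members, PP2-B11 did not pass without cfh1 replicate 1 (-1.12, adjusted p 0.0617), cfh1 replicate 2 (-0.97, adjusted p 0.0715) or cfh1 replicate 3 (-1.06, adjusted p 0.0564). Of 180 tested genes with F-box in the product name, 19 were higher and 19 lower, beside 12.2% and 9.21% of all genes tested. Among 27 tested SCF subunits and named F-box genes 2 were lower, which was 0 without any 1 of the cfh1 libraries or decoy replicate 1 and 3 without decoy replicate 3. None was higher by edgeR or DESeq2, and 1 was at an unadjusted p under 0.05. The 10 SCF core genes had a median log2 fold change of -0.20.

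**Figure D3:**
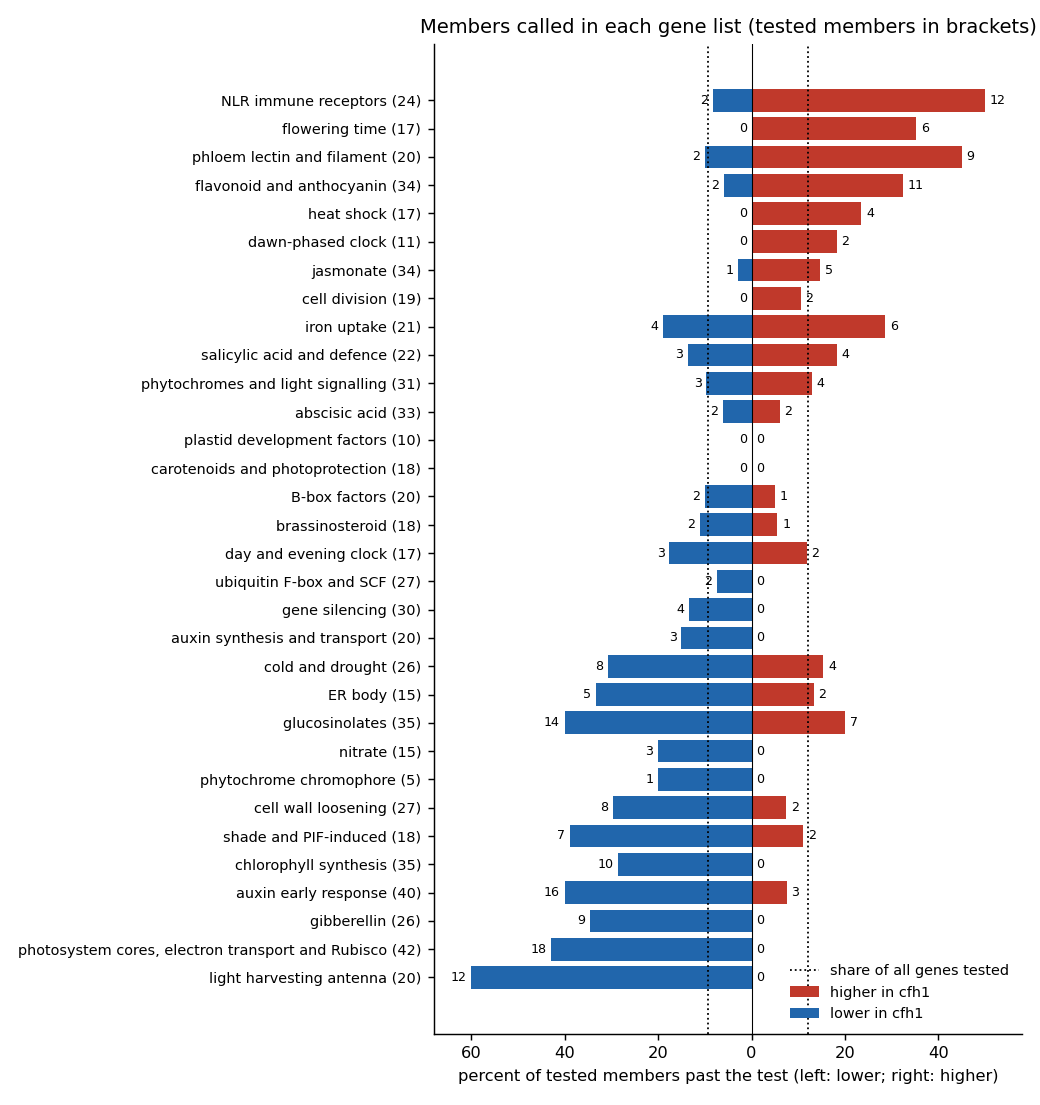
Share of tested members past the test in each of 32 gene lists, in percent, with members lower in cfh1 to the left (blue) and higher to the right (red), the number beside each bar, and dotted lines at the shares of all genes tested (9.21% lower, 12.2% higher). The light harvesting antenna list has 12 of 20 members lower and the NLR list 12 of 24 higher.

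Flavonoid and anthocyanin genes, which make the red and ultraviolet-screening pigments of seedlings, were higher in cfh1 at the late steps. Of 34 tested members 11 were higher (32.4%) and 2 lower (5.88%), beside 12.2% and 9.21% of all genes tested. Their median log2 fold change was 0.47. LDOX, which makes anthocyanidins, had 9.14, 14.1 and 6.32 CPM in cfh1 and 1.08, 1.34 and 1.57 CPM in the decoy (log2 fold change 2.87, SE 0.33, adjusted p 0.000718). DFR, the enzyme before it, had 12.5, 15.7 and 5.81 CPM against 0.753, 3.31 and 1.44 CPM (log2 fold change 2.57, SE 0.52, adjusted p 0.0102). No decoy library reached a cfh1 library for either gene, though both were at low level and spread among the cfh1 libraries. Of the 7 tested late genes 5 were higher, among them the anthocyanin acyltransferase 5MAT (1.96), the glutathione transferase TT19 (1.84) and the xylosyltransferase UF3GT (2.37). The glycosyltransferase genes UGT78D1 and UGT78D2 stood at 0.20 and 0.11 and did not pass.

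Of the early flavonoid genes 1 passed. CHIL, a partner of chalcone synthase, had 51.0, 65.6 and 41.3 CPM in cfh1 and 25.5, 21.8 and 26.8 CPM in the decoy (log2 fold change 1.09, SE 0.18, adjusted p 0.0042), among 6 tested early members. Chalcone synthase TT4 stood at 0.48 (adjusted p 0.409), F3H at 0.71 (adjusted p 0.065) and TT5 at -0.33 (adjusted p 0.278). Among the regulators, the MYB activator PAP1 had 1.65, 1.72 and 1.6 CPM against 0.0538, 0.203 and 0.0326 CPM (log2 fold change 3.93, SE 0.54, adjusted p 0.00177) and its bHLH partner TT8 had 0.972, 1.37 and 1.2 CPM against 0.108, 0.174 and 0.294 CPM (log2 fold change 2.54, SE 0.44, adjusted p 0.00515). Both were near or under 2 CPM in every library. The repressor MYBL2 was lower, at 11.7, 8.22 and 9.87 CPM against 29.6, 26.5 and 24.4 CPM (log2 fold change -1.43, SE 0.16, adjusted p 0.000718), while MYB4, a repressor of phenylpropanoid genes, was higher (1.31, adjusted p 0.00237). PAL3, the other lower member, did not pass without cfh1 replicate 1 (-0.48, adjusted p 0.166), cfh1 replicate 2 (-0.59, adjusted p 0.0768), cfh1 replicate 3 (-0.47, adjusted p 0.134) or decoy replicate 1 (-0.36, adjusted p 0.0814). With library totals 15 members were higher and 1 lower, and 8 to 12 were higher without single libraries. UF3GT did not pass without cfh1 replicate 1 (2.21, adjusted p 0.0666) or cfh1 replicate 2 (2.05, adjusted p 0.0625). In Col-0 LDOX and DFR stood at 19.1 ± 5.50 and 22.7 ± 10.4 CPM in the 12-library scaling, with cfh1 at 10.5 ± 4.16 and 12.1 ± 5.38.

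The 300 bases before the annotated starts of DFR and CHIL are shown because both genes were higher and both stretches hold a G-box (CACGTG, in capitals), a motif that bZIP and bHLH factors such as HY5 and PIFs bind. The sequences come from the TAIR10.1 reference, at chr5:17166033-17166332 on the minus strand for DFR and chr5:1562986-1563285 on the plus strand for CHIL, and the G-box begins 14 and 67 bases before the start.
DFR: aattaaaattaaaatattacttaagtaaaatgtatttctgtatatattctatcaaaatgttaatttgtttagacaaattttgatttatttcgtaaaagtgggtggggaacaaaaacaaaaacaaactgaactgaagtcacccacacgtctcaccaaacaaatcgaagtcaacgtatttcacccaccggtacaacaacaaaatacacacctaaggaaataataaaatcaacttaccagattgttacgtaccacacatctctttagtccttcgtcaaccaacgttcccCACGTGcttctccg
CHIL: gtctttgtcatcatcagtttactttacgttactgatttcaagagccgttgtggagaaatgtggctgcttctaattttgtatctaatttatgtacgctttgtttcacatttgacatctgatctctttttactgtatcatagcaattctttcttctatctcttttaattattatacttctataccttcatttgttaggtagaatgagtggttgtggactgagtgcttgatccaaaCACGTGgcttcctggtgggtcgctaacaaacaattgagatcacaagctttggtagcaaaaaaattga
The motif reads the same on both strands. It was found in 7 of 34 such stretches of the flavonoid list (20.6%) and in 1631 of 20545 over all tested genes (7.94%). Genes higher in cfh1 held it in 7.87% and genes lower in cfh1 in 6.91%. A match describes the letters and does not show binding.

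**Figure D4:**
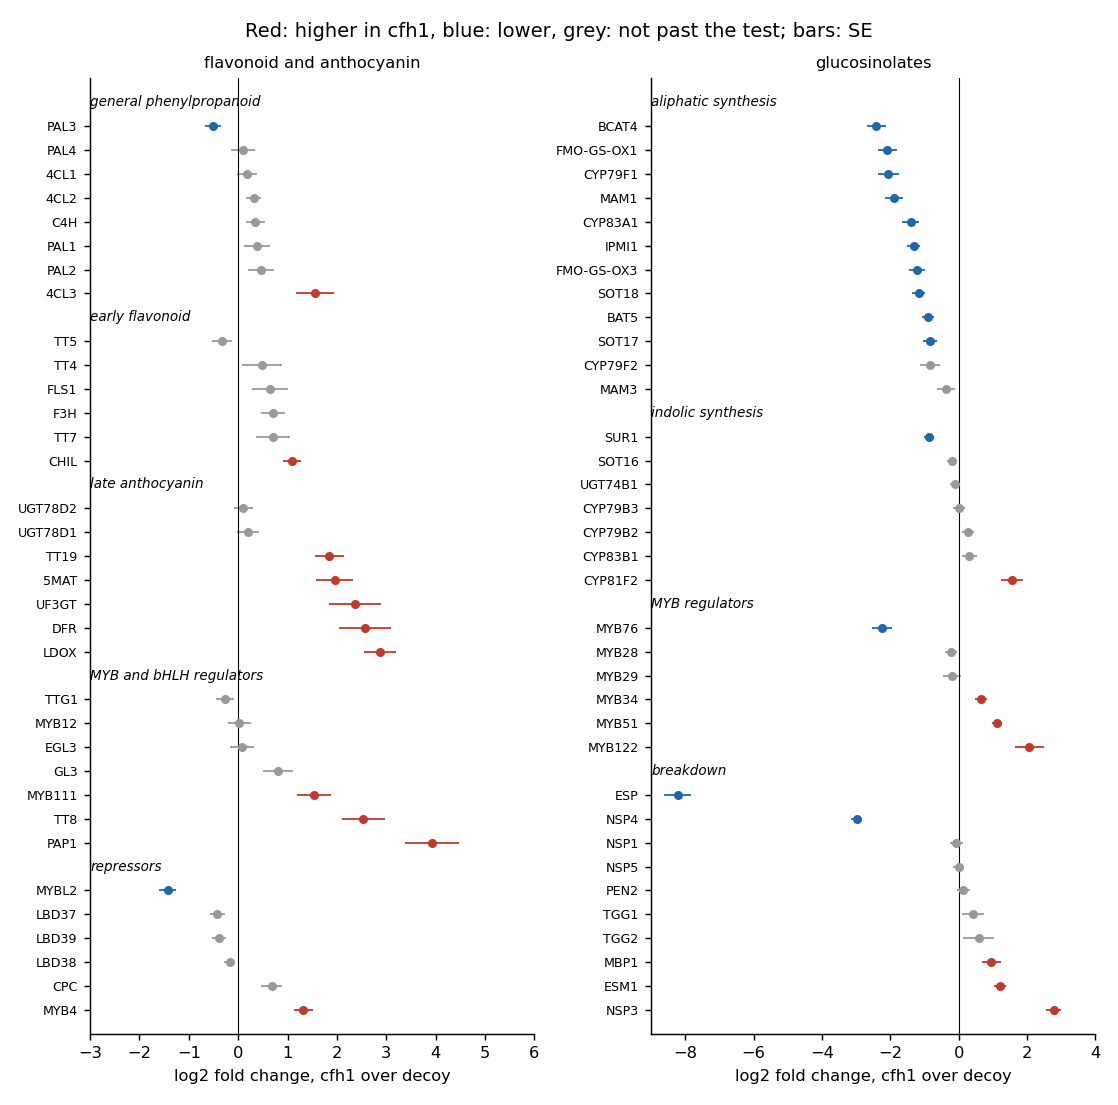
Log2 fold change of cfh1 over decoy (horizontal axis) with its SE (bars, from the 6-library fit) for the tested members of the flavonoid and glucosinolate lists, ordered within each role. Red and blue points passed the test as higher and lower and grey points did not; the late anthocyanin genes lie to the right, up to 2.87 for LDOX, and the aliphatic glucosinolate genes to the left, down to -2.41 for BCAT4.

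Transcripts for light harvesting were lower in cfh1 than in the decoy. The antenna proteins bind chlorophyll and pass light energy to the photosystems, and of 20 tested antenna genes 12 were lower (beside 9.21% of all genes tested), with a median log2 fold change of -0.79. None was higher by DESeq2, by edgeR or, before adjustment, at p under 0.05. LHCB2.2 had 482, 632 and 423 CPM in cfh1 and 1837, 1464 and 1600.5 CPM in the decoy (log2 fold change -1.67, SE 0.20, adjusted p 0.000973). LHCB1.2 had 1579, 1900.2 and 1867 CPM against 4690.1, 3705 and 3946 CPM (log2 fold change -1.21, SE 0.19, adjusted p 0.00376). These were the antenna genes that passed with each library left out in turn, and the LHCB1 and LHCB2 copies are near-identical, so their counts can be split between copies. LHCA3, of photosystem I, stood at -1.09 (adjusted p 0.00726), and did not pass without cfh1 replicate 1 (-1.04, adjusted p 0.0513). In the 12-library scaling Col-0 had 573, 2336 and 1700 CPM of LHCB2.2, LHCB1.2 and LHCA3. There cfh1 had 546, 1898 and 1711 CPM and the decoy 1742, 4387 and 3642 CPM. The count of lower antenna genes was 2 without cfh1 replicate 1, 6 without cfh1 replicate 3, 7 without decoy replicate 1 and 5 without decoy replicate 3. All 20 members had a negative log2 fold change with TMM factors, and with library totals LHCB4.2 turned to 0.09 while 12 members were lower. In bulk seedlings, fewer mesophyll cells and less RNA per cell cannot be told apart.

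Photosystem and electron-transport genes followed the same direction. Of 42 tested members 18 were lower (42.9%), with a median of -0.60, and none was higher by DESeq2, by edgeR or, before adjustment, at p under 0.05. The lower members were 7 of 11 for photosystem II, 10 of 12 for photosystem I and 1 of 7 for electron transport, all by edgeR. Of 12 carbon fixation genes edgeR called none, DESeq2 7 lower and the fit over all 12 libraries 2 lower, with a median log2 fold change of -0.60. The count was 1 without cfh1 replicate 1, 6 without cfh1 replicate 2, 4 without cfh1 replicate 3, 7 without decoy replicate 1, 6 without decoy replicate 3 and 9 with library totals, while DESeq2 gave 33. PSAG, a photosystem I subunit, had 1698, 1697 and 1597 CPM in cfh1 and 4000.5, 2536 and 3198 CPM in the decoy (log2 fold change -0.96, SE 0.21, adjusted p 0.0147) and did not pass without cfh1 replicate 1 (-0.98, adjusted p 0.0701) or cfh1 replicate 2 (-0.98, adjusted p 0.05). FD2, named above, passed in each of these fits. In the 12-library scaling Col-0 had 1596 CPM of PSAG and 1271 CPM of FD2, where cfh1 had 1772 and 1317 CPM. The Rubisco small subunit RBCS1A stood at -0.72 (adjusted p 0.0739) and the carbonic anhydrase CA1 at -0.32 (adjusted p 0.472). The markers of mesophyll moved the same way: summed CPM was lower in each cfh1 library, 1 of the 4 genes (LHCB1.2, also an antenna member) was lower and none was at 0. RBCS1A and CA1 are also among these 4 markers, so the sum is not a separate measure of mesophyll. The part of mesophyll content in the result was not tested.

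Chlorophyll synthesis genes were lower at several steps. Of 35 tested members 10 were lower (28.6%, beside 9.21% of all genes tested), with a median of -0.40. None was higher by edgeR, 1 by DESeq2 and 1 at an unadjusted p under 0.05, while DESeq2 called 18 lower. By role, edgeR called 5 of 11 early-step, 1 of 7 magnesium-branch, 3 of 6 last-step and 1 of 9 breakdown genes lower. PORA, the light-labile protochlorophyllide reductase that seedlings use when they green, had 3.08, 2.67 and 4.61 CPM in cfh1 and 18.4, 15.6 and 17.7 CPM in the decoy (log2 fold change -2.31, SE 0.22, adjusted p 0.000277). HEME1, a uroporphyrinogen decarboxylase gene, had 111, 133 and 119 CPM against 194, 199 and 219 CPM (log2 fold change -0.75, SE 0.13, adjusted p 0.00529). Groups were apart for both, and Col-0 had 3.12 ± 1.79 CPM of PORA in the 12-library scaling, in the range of cfh1. PORB and PORC stood at -0.87 and -0.16; PORB did not pass without cfh1 replicate 1 (-0.76, adjusted p 0.144), cfh1 replicate 2 (-0.76, adjusted p 0.113) or decoy replicate 1 (-0.68, adjusted p 0.0848). The list had 2 lower members without cfh1 replicate 1, 5 without cfh1 replicate 3, 6 without decoy replicate 3 and 6 with library totals. HO3, a heme oxygenase gene of phytochrome chromophore synthesis, had 0.518, 0.878 and 0.458 CPM against 7.53, 11.8 and 13.5 CPM (log2 fold change -4.16, SE 0.34, adjusted p 0.000102). None of the 18 tested carotenoid and photoprotection genes passed edgeR's test, while DESeq2 called 3 lower, and 4 lower and 1 higher had an unadjusted p under 0.05. None of the 10 plastid development factors passed edgeR's test, while DESeq2 called 1 higher, and 2 higher and 1 lower had an unadjusted p under 0.05.

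The stretch before LHCB2.3 is shown as an example of an antenna gene past the test with a G-box and no other annotated gene in the 300 bases. It lies at chr3:10255606-10255905 (TAIR10.1, plus strand), with the motif 88 bases before the start.
LHCB2.3: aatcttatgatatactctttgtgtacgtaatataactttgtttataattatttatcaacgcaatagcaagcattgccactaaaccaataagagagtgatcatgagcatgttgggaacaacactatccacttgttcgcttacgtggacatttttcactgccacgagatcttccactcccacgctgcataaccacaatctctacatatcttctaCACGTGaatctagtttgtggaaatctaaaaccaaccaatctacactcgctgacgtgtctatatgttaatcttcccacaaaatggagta
LHCB2.3 itself had 423, 550.4 and 384 CPM in cfh1 and 827, 636 and 833 CPM in the decoy (log2 fold change -0.76, SE 0.19, adjusted p 0.0257), and did not pass without cfh1 replicate 1 (-0.71, adjusted p 0.118), cfh1 replicate 3 (-0.65, adjusted p 0.0853), decoy replicate 1 (-0.70, adjusted p 0.0556) or decoy replicate 3 (-0.70, adjusted p 0.071). The G-box occurred in 4 of 20 antenna stretches (20.0%) and in 8 of 42 of the photosystem list (19.0%).

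Glucosinolate genes, which make and break down the sulfur-rich defence compounds of the cabbage family, split by branch. Of 35 tested members 7 were higher and 14 lower in cfh1, with a median of -0.19. The aliphatic branch, which starts from methionine, was lower: 10 of 12 tested members passed (83.3%) and none was higher, with a median of -1.27. BCAT4, its first aminotransferase, had 57.8, 105 and 46.7 CPM in cfh1 and 365, 355 and 393 CPM in the decoy (log2 fold change -2.41, SE 0.28, adjusted p 0.000849). CYP79F1, which makes the aldoximes, had 65.3, 118 and 46.3 CPM against 317, 294 and 346 CPM (log2 fold change -2.06, SE 0.31, adjusted p 0.00267). MAM1, of chain elongation, had 102, 162 and 80.1 CPM against 447, 373 and 459.9 CPM (log2 fold change -1.89, SE 0.25, adjusted p 0.00161). In all of these the highest cfh1 library, replicate 2, stayed below the lowest decoy library. Col-0 had 101, 113 and 151 CPM of BCAT4, CYP79F1 and MAM1 in the 12-library scaling, where cfh1 had 74.4, 81.45 and 122 CPM. FMO-GS-OX1, CYP83A1, IPMI1 and SOT18 followed at -2.09, -1.40, -1.32 and -1.17. Leaving out single libraries or using library totals left 13 to 15 lower members of the whole list.

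Of 7 tested genes of indolic synthesis, which starts from tryptophan, 1 was higher and 1 lower, with a median of 0.01. That is 14.3% each way, beside 12.2% higher and 9.21% lower among all genes tested. SUR1, the lyase that both branches use, was the lower one at 124, 127 and 95.3 CPM against 225, 196 and 206 CPM (log2 fold change -0.86, SE 0.15, adjusted p 0.00552), and IGMT2, of a later indolic step and outside the list, was lower as given above. CYP79B2, CYP79B3 and CYP83B1 stood at 0.27, 0.01 and 0.32 and did not pass. CYP81F2, which modifies indolic glucosinolates, was higher at 33.5, 25.1 and 16.0 CPM against 9.31, 5.03 and 11 CPM (log2 fold change 1.56, SE 0.33, adjusted p 0.0129), but not without cfh1 replicate 1 (1.29, adjusted p 0.0552). Among the MYB regulators, MYB51 and MYB122, activators of the indolic branch, were higher (1.12 and 2.07), and MYB76, of the aliphatic branch, was lower (-2.24), while MYB28 and MYB29, its main activators, stood at -0.22 and -0.19 and did not pass. MYB122 did not pass without cfh1 replicate 1 (2.05, adjusted p 0.0508). In breakdown, NSP3 had 10.1, 10.1 and 7.44 CPM against 1.29, 1.25 and 1.44 CPM (log2 fold change 2.79, SE 0.22, adjusted p 9.07e-05), ESM1, which favours isothiocyanates, 371, 444 and 456 CPM against 213, 160.3 and 176 CPM (log2 fold change 1.21, SE 0.16, adjusted p 0.00159), and both ESP and NSP4 were lower. The myrosinases TGG1 and TGG2 stood at 0.42 and 0.58 (adjusted p 0.357 and 0.385). For the list, 3 higher members passed without cfh1 replicate 1.

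The related ER-body list had 2 higher (13.3%) and 5 lower (33.3%) of 15 tested members. The higher share lies near the 12.2% of all genes tested, of which 9.21% were lower. The lectin genes JAL31 and JAL22 stood at -1.21 and -1.09, and NAI1, the factor that switches on ER-body genes, at -0.60. Without cfh1 replicate 1 or 2 the list had no higher and 3 lower members, and it had 1 higher without cfh1 replicate 3 or decoy replicate 1. PYK10, the root beta-glucosidase of these bodies, had 3865, 3648 and 3015 CPM against 6321, 4758 and 6057 CPM (log2 fold change -0.70, SE 0.21, adjusted p 0.0476) and did not pass without cfh1 replicate 1 (-0.78, adjusted p 0.125), cfh1 replicate 2 (-0.73, adjusted p 0.101), cfh1 replicate 3 (-0.60, adjusted p 0.129), decoy replicate 1 (-0.62, adjusted p 0.101) or decoy replicate 3 (-0.66, adjusted p 0.137). It makes up most of the summed root markers, which were lower in each cfh1 library. Of the 8 root markers 2 were higher, 2 lower and none was at 0 in either line. Their part in these results was not tested.

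**Figure D5:**
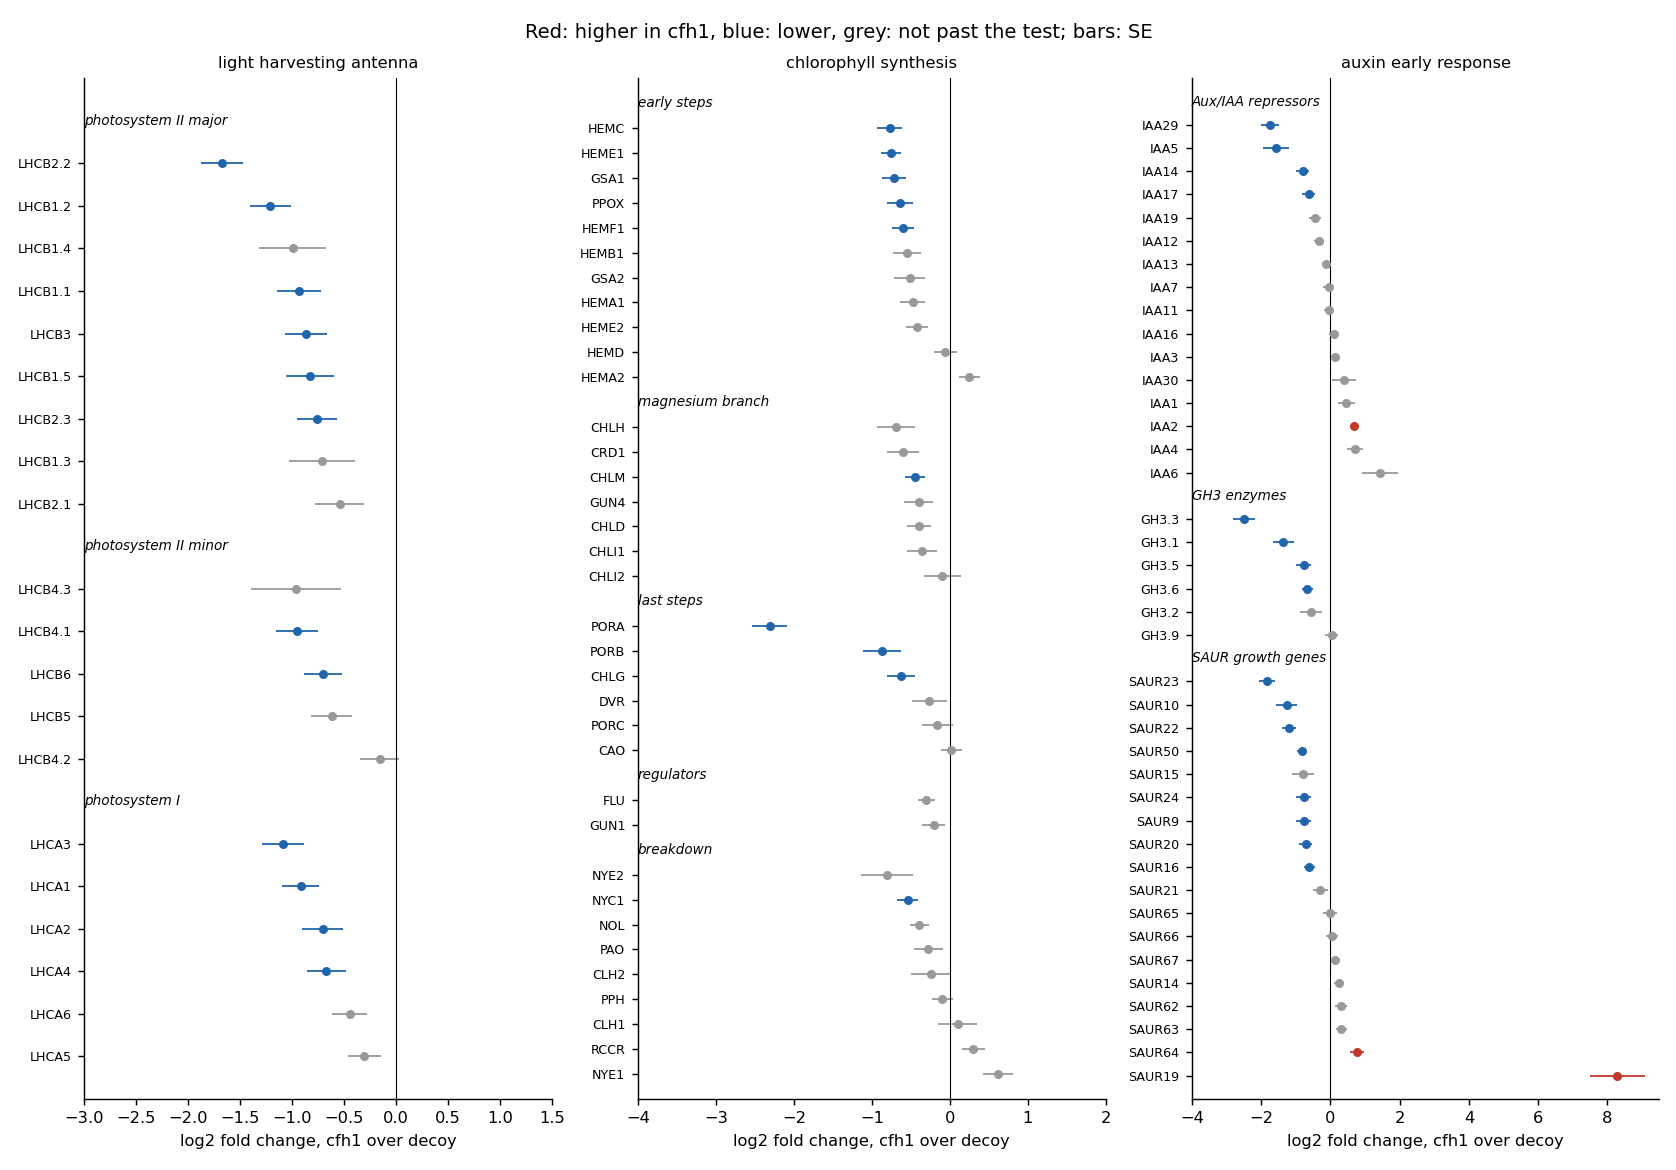
Log2 fold change of cfh1 over decoy (horizontal axis) with its SE for the tested members of the antenna, chlorophyll and early auxin lists, grouped by role, with red and blue points past the test and grey points not. All antenna genes lie left of 0; SAUR19, at 8.29, had no count in the decoy.

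Growth genes that respond to auxin were lower in cfh1 in several families. Of 40 tested early auxin genes 16 were lower (beside 9.21% of all genes tested) and 3 higher, with a median of -0.30. GH3.3, which conjugates auxin to amino acids, had 8.65, 13.2 and 7.70 CPM in cfh1 and 69.3, 31.0 and 66.3 CPM in the decoy (log2 fold change -2.50, SE 0.33, adjusted p 0.00143). SAUR23, a growth gene, had 1.98, 2.11 and 2.43 CPM against 9.20, 7.79 and 6.33 CPM (log2 fold change -1.83, SE 0.22, adjusted p 0.000941). IAA29, a repressor gene of auxin response, had 1.91, 1.86 and 2.17 CPM against 7.00, 8.11 and 4.89 CPM (log2 fold change -1.75, SE 0.25, adjusted p 0.00203). All cfh1 libraries lay below all decoy libraries in these genes. Col-0 had 11.7, 2.18 and 1.08 CPM of GH3.3, SAUR23 and IAA29 in the 12-library scaling, where cfh1 had 10.5, 2.31 and 2.11 CPM. SAUR22 and SAUR50 stood at -1.19 and -0.81, and IAA2, on the other side, at 0.69. SAUR19 had 123 counts in cfh1 and none in the decoy (at least 36.4-fold higher), in a block of near-identical genes that includes SAUR23 and can share estimated counts. The count of lower members was 7, 6 and 5 without cfh1 replicate 1, 2 and 3, 10 without decoy replicate 1 and 9 with library totals, and 5 members were higher without decoy replicate 2. Of 20 genes for auxin synthesis and transport, 3 were lower (PIN3, PID and YUC8), but none of these passed without cfh1 replicate 1, 2 or 3 or with library totals, and 1 did without decoy replicate 1. None was higher by DESeq2, by edgeR or, before adjustment, at p under 0.05.

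Genes induced by shade and PIF factors had 7 lower (38.9%) and 2 higher (11.1%) of 18 tested members, with a median of -0.37. The higher share lies near the 12.2% of all genes tested, of which 9.21% were lower. PRE1 and PRE5, small helix-loop-helix genes that promote elongation, stood at 3.63, 3.76 and 3.75 against 13, 11.3 and 14.1 CPM (log2 fold change -1.79, SE 0.17, adjusted p 0.000225) and at -2.17 (adjusted p 0.00518). ST2A, a sulfotransferase gene, and BEE1, a brassinosteroid-induced bHLH gene, were lower at -1.08 and -0.87. The classical shade gene ATHB-2 stood at -0.08 (adjusted p 0.739; 0.14 with library totals) and PIL1 at -0.25 (adjusted p 0.591). Neither of the 2 higher members passed without any 1 of the cfh1 libraries or decoy replicate 3. The stretch before BEE1, at chr1:6331098-6331397 (TAIR10.1, plus strand), is shown as that of the member past the test with a G-box, which begins 136 bases before the start; 3 of 18 stretches of the list held one (16.7%).
BEE1: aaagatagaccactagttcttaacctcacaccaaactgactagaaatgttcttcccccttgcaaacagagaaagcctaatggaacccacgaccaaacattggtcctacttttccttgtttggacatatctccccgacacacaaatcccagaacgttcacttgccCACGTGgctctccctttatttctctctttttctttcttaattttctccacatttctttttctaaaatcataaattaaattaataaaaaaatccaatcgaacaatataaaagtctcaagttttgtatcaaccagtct

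Cell wall loosening genes, expansins and xyloglucan enzymes, had 8 lower (29.6%) and 2 higher (7.41%) of 27 tested members. All genes tested had 9.21% lower and 12.2% higher. XTH24 had 87.4, 66.6 and 79.6 CPM in cfh1 and 305, 205 and 211 CPM in the decoy (log2 fold change -1.63, SE 0.19, adjusted p 0.000844). EXPA8, EXPA11 and XTH33 stood at -1.35, -1.32 and -1.25, and XTH23 was higher at 1.89. There was 1 higher member without any 1 of the cfh1 libraries, 4 without decoy replicate 1 and 7 with library totals, while 7 to 12 lower members passed in the fits with a library left out. Gibberellin genes had 9 lower of 26 tested (34.6%), and none was higher by DESeq2, by edgeR or, before adjustment, at p under 0.05. GA20OX1, a rate-setting enzyme of gibberellin synthesis, had 1.72, 2.25 and 1.32 CPM against 4.95, 3.95 and 4.83 CPM (log2 fold change -1.38, SE 0.27, adjusted p 0.00855), and the DELLA repressor genes RGL1 and RGL2 stood at -0.88 and -0.78. Enzymes of synthesis (2 of 9) and signalling genes (4 of 9) were both among the lower members. The count fell to 3 without cfh1 replicate 1 or 2, 5 without cfh1 replicate 3, 6 without decoy replicate 3 and 4 with library totals. Of the brassinosteroid genes, 2 of 18 were lower (11.1%), among them the receptor-like BRL3 (-1.23), and 1 was higher (5.56%). There were 1 or 2 lower and 0 to 2 higher when libraries were left out.

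Clock genes at the hour sampled are given beside the 12.2% higher and 9.21% lower of all genes tested. CCA1 and LHY, the dawn factors of the clock, had 127, 132 and 97.3 and 254, 248 and 185 CPM in cfh1 against 45.4, 80.3 and 90.0 and 118, 162 and 181 CPM in the decoy. Every cfh1 library was above every decoy library in both genes, but neither passed the test (log2 fold changes 0.72 and 0.57, adjusted p 0.0655 and 0.0681). RVE1, a dawn factor that links the clock to auxin, was higher at 58.8, 58.6 and 48.6 CPM against 32.4, 31.0 and 28.9 CPM (log2 fold change 0.85, SE 0.13, adjusted p 0.0026), and RVE2 stood at 0.91 but did not pass without cfh1 replicate 1 (0.90, adjusted p 0.0505). In all, 2 of 11 dawn-phased genes were higher, against 4 by DESeq2 and 5 with library totals, and none was lower by DESeq2, by edgeR or, before adjustment, at p under 0.05. Among 17 day and evening genes 2 were higher and 3 lower, with 1 higher without cfh1 replicate 1 or 3 or decoy replicate 1 or 3. The lower count was 1, 0 and 5 without cfh1 replicate 1, cfh1 replicate 2 and decoy replicate 2, and 1 with library totals. ELF4, of the evening complex, had 25, 24.6 and 26.6 CPM against 12.7, 13.8 and 16.7 CPM (log2 fold change 0.82, SE 0.14, adjusted p 0.00509). GI, an evening gene that stabilises an F-box photoreceptor, had 34.6, 29.5 and 31.6 CPM against 62.8, 44.9 and 49.6 CPM (log2 fold change -0.71, SE 0.15, adjusted p 0.0125) and did not pass without cfh1 replicate 2 (-0.66, adjusted p 0.057). TOC1 stood at 0.07 (adjusted p 0.797) and the F-box clock gene ZTL at -0.47 (adjusted p 0.0513). With a single sampling time, a level and a shift in timing cannot be told apart.

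Of 31 tested genes of phytochrome and light signalling 4 were higher (12.9%) and 3 lower (9.68%), with a median of 0.02. These shares lie near the 12.2% and 9.21% of all genes tested. PIF4, a factor that promotes elongation and is removed by active phytochrome, had 39.1, 31.1 and 44.8 CPM in cfh1 and 83.0, 70.6 and 79.0 CPM in the decoy (log2 fold change -1.02, SE 0.15, adjusted p 0.00288). HYH, a bZIP factor that promotes light development, had 27.9, 34.4 and 24.6 CPM against 8.83, 13.2 and 11.4 CPM (log2 fold change 1.37, SE 0.19, adjusted p 0.00178). Both passed in each fit with a library left out. HY5, its close relative, had 18.5, 19.3 and 18.7 CPM against 12.9, 15.6 and 12.4 CPM (log2 fold change 0.46, SE 0.14, adjusted p 0.0436) and passed only without decoy replicate 2 among the fits with a library left out. PIF3 stood at -0.39 (adjusted p 0.222) and PHYB, the main red-light receptor, at -0.09 (adjusted p 0.664; 0.15 with library totals). The other phytochrome genes PHYA and PHYE stood at -0.49 and 0.50, with adjusted p 0.0499 and 0.023. PHYA passed without decoy replicate 2 alone, and PHYE did not pass without cfh1 replicate 1 (0.50, adjusted p 0.1), cfh1 replicate 3 (0.45, adjusted p 0.0834) or decoy replicate 3 (0.51, adjusted p 0.0505). The higher members numbered 1 without cfh1 replicate 1 or 3 or decoy replicate 3, 2 without cfh1 replicate 2 or decoy replicate 1, and 9 without decoy replicate 2 or with library totals. The lower members numbered 1 without any 1 of those libraries other than decoy replicate 2, and with library totals. COL5, a B-box gene, was lower at -0.71 (adjusted p 0.00445).

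In the salicylic acid list higher and lower members fell mostly in different roles, but few genes passed in each role. Of 5 tested PR genes and targets 2 were lower, and of 17 genes of synthesis and regulation 4 were higher and 1 lower. PR2, a glucanase gene, had 1.43, 1.23 and 0.372 CPM in cfh1 and 15.7, 24.9 and 22.2 CPM in the decoy (log2 fold change -4.39, SE 0.41, adjusted p 0.000225). PR1 had 0.875, 0.0351 and 0 CPM against 3.71, 3.29 and 2.61 CPM (log2 fold change -3.39, SE 0.93, adjusted p 0.034), and did not pass without cfh1 replicate 2 (-2.89, adjusted p 0.103), cfh1 replicate 3 (-2.78, adjusted p 0.0624) or decoy replicate 1 (-3.28, adjusted p 0.0734). ALD1, which makes the signal pipecolic acid, stood at -2.11. Col-0 had 1.25, 0.132 and 2.65 CPM of PR2, PR1 and ALD1 in the 12-library scaling, where cfh1 had 1.07, 0.323 and 3.02 CPM. Of 22 tested members 4 were higher and 3 lower (13.6%), beside 12.2% higher and 9.21% lower among all genes tested. The higher members numbered 12 without decoy replicate 3, 2 without cfh1 replicate 1 or 2 and 7 with library totals. ICS2, an isochorismate synthase gene, and NPR4, a salicylic acid receptor gene, were higher at 1.1 and 0.92, and the main synthase ICS1 stood at -0.55 (adjusted p 0.163). Among 34 jasmonate genes 5 were higher (14.7%, near the 12.2% of all genes tested) and 1 lower (2.94%), with VSP1 at 1.02 and AOC4 at -0.92. The higher count was 1 without cfh1 replicate 1 and 3 without cfh1 replicate 2, decoy replicate 1 or decoy replicate 2, and 2 were lower without cfh1 replicate 1.

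Iron genes divided by role. The bHLH101, bHLH38 and bHLH39 factors, which rise when iron is short, were higher in cfh1, and the ferritins, which store iron, were lower. bHLH101 had 19.6, 16.2 and 17.1 CPM in cfh1 and 4.14, 1.13 and 3.16 CPM in the decoy (log2 fold change 2.68, SE 0.38, adjusted p 0.00208). bHLH38 had 58.4, 59.7 and 41.0 CPM against 10.9, 1.51 and 12.7 CPM (log2 fold change 2.68, SE 0.59, adjusted p 0.0151). FER1 had 67.9, 62.0 and 114 CPM against 157, 691 and 402 CPM (log2 fold change -2.36, SE 0.48, adjusted p 0.0111). The decoy libraries themselves ranged widely: replicate 2 had the least bHLH38 and the most FER1. Col-0 had 15.6, 62.05 and 84.0 CPM of bHLH101, bHLH38 and FER1 in the 12-library scaling, where cfh1 had 18.8, 56.5 and 86.7 CPM. PYE, a regulator of iron shortage, was higher at 1.22, and FER4 and FER3 stood at -1.45 and -0.93. The uptake genes IRT1 and FRO2 stood at 0.33 and 0.13 and did not pass, with FIT, their activator, at -0.14. In total 6 of 21 tested members were higher (28.6%) and 4 lower (19.0%), where all genes tested had 12.2% and 9.21%. Without cfh1 replicate 1 there were 2 and 1, and without cfh1 replicate 2 there were 2 and 2. bHLH38 did not pass without cfh1 replicate 1 (2.60, adjusted p 0.0514) or cfh1 replicate 2 (2.58, adjusted p 0.0515), and FER1 not without cfh1 replicate 1 (-2.24, adjusted p 0.0555) or cfh1 replicate 2 (-2.19, adjusted p 0.0533). bHLH39 did not pass without cfh1 replicate 1 (2.17, adjusted p 0.0966), cfh1 replicate 2 (2.1, adjusted p 0.0941) or cfh1 replicate 3 (2.37, adjusted p 0.0595), FER4 not without cfh1 replicate 1 (-1.39, adjusted p 0.0592) or cfh1 replicate 2 (-1.42, adjusted p 0.0535) and FER3 not without cfh1 replicate 1 (-0.89, adjusted p 0.0508).

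The stretch before bHLH38, at chr3:21085246-21085545 (TAIR10.1, minus strand), is shown because 6 of 21 stretches of this list held a G-box (28.6%), among them those of the higher bHLH38 and of the lower FER4. The G-box begins 97 bases before the start.
bHLH38: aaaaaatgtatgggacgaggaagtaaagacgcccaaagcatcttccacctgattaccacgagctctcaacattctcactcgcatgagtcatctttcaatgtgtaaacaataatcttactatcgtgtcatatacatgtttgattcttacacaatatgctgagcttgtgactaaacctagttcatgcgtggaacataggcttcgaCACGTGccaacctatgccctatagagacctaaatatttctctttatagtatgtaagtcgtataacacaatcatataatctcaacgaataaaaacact

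The other lists are given by their counts, beside 12.2% higher and 9.21% lower among all genes tested. Among 17 flowering genes 6 were higher (35.3%), with CDF2, a repressor of CONSTANS, at 0.91 (adjusted p 0.00868). The count was 1 without cfh1 replicate 1, 3 without cfh1 replicate 2, 2 without cfh1 replicate 3 and 4 without decoy replicate 1 or 3. None was lower by edgeR or DESeq2, and 2 were at an unadjusted p under 0.05. Heat-shock genes had 4 higher of 17, with HSFA7A at 1.78 and HSP90.1 at 1.3, and a median of -0.04. Without cfh1 replicate 1 or 3, 2 were higher. None was lower by edgeR, 1 by DESeq2, 2 at an unadjusted p under 0.05 and 2 without decoy replicate 1. Cold and drought genes had 4 higher (15.4%) and 8 lower (30.8%) of 26. GOLS2, of raffinose synthesis, was lower at -2.37 and the late-embryogenesis genes LEA4-5 and LEA7 were higher at 2.35 and 2.18. The lower count was 2 without cfh1 replicate 1 and 3 without cfh1 replicate 2, the higher count 2 without either, and library totals gave 6 higher and 5 lower. Abscisic acid genes had 2 higher, both breakdown enzymes, of which CYP707A1 stood at 1.68, and 2 lower of 33. Without any 1 of the cfh1 libraries 1 was higher, without cfh1 replicate 1 none was lower, and library totals gave 5 higher. Nitrate genes had 3 lower of 15, cell-division genes 2 higher of 19 and gene-silencing genes 4 lower of 30, and each of these counts moved by more than 1.5 times when a library was left out, over 0 to 6, 1 to 5 and 0 to 5. Plastid-encoded genes had 15 higher and 6 lower of 75 tested, with a median log2 fold change of -0.138. How these 2 counts move when a library is left out was not counted.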

How the data were processed

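The authors deposited estimated counts per gene, which need not be whole numbers because a read can be divided between genes, and 37.84% of the values were not whole (tolerance 1e-09). Per the submitters' processing notes, the TAIR10 build was used with StringTie 2.1.2, HISAT2 2.1.0 and Trimmomatic 0.39. The role of each tool, how reads were counted and whether strand was used are not given there. mRNA libraries were made from 5 to 20 ng of TRIzol RNA, per the labels' protocols. Overlapping and antisense genes may share reads, and near-identical genes share counts by a model.

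Estimated counts of the 6 libraries were rounded and fitted in edgeR 4.0.16 (R 4.3.3) with TMM factors, filterByExpr (minimum count 10) and the quasi-likelihood test, 2-sided, with 4 residual degrees of freedom. All adjusted p-values are Benjamini-Hochberg values over the 20660 genes tested unless another tool is named, at a threshold of 0.05, and SE is that of the edgeR log2 fold change. The TAIR10.1 annotation held 27390 of the 27588 locus codes and gave names, products, positions and upstream sequence, and 3510 genes had 0 counts in all 6 libraries. TAIR10.1 was read by locus code, so no position was carried between builds. Levels in Col-0 and with PIF3 over-expression come from a scaling over all 12 libraries and enter no test.

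The members and gene lists were chosen with earlier results of these data known, from general knowledge, and their counts are to be read against the share of all genes tested, 12.2% higher and 9.21% lower. Named genes have a symbol, pass the test and do not overlap between lines. They are the 10 largest fold changes each way at 5 CPM or more in both lines, 6 each way with at most 3 counts in one line, 6 each way with the largest CPM difference at 2-fold or more, up to 4 members of each list at 1 CPM or more, and 14 genes always given. Other genes, among them further list members and those without a symbol, were named after their values were seen.

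On simulated data (20660 genes, 50 changed at each size) the test called 12 genes falsely and found 0% of the genes changed 1.5-fold, 64% at 2-fold, 94% at 4-fold and 100% at 8-fold. Far fewer genes were changed there than the 4425 past the test here, and both lines were given the same spread. These rates are therefore not those of the real comparison. Alternatives were other scalings and filters, DESeq2 1.42.0, limma-voom (limma 3.58.1) with sample quality weights, a fit over all 12 libraries, a replicate block, and leaving out each library in turn.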

Additional observations from a re-analysis of the deposited data

How the results depend on the processing

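No gene named by rule that passed the test changed direction in 15 other settings. Of those that did not pass, PHYB turned from -0.09 to 0.15 with library totals, and TOC1 from 0.07 to -0.079 without cfh1 replicate 3 and -0.041 without decoy replicate 3, with 0.21 as its highest value with a library left out. With library totals ATHB-2, LHCB4.2, PORC, MYB29, ADR1-L1 and FIT, none past the test, also turned, to 0.14, 0.089, 0.053, 0.0028, 0.0071 and 0.096. Counts of genes higher and lower in cfh1 (2522 and 1903) came to 3864 and 3191 in a fit over all 12 libraries, 3627 and 858 with library totals, 3123 and 2596 by DESeq2 and 3390 and 2832 by limma-voom with quality weights. Without single libraries they ran from 1225 to 3096 and from 637 to 2377, and at least 2-fold ones from 1057 to 1888 and from 466 to 722. RLE factors, omission of the 10 most abundant and the organelle genes, no filter (24078 genes) and a stricter filter (1 CPM in 3 libraries, 19388 genes) each stayed within 1.5 times of all 4 counts. Of the 2522 higher genes 2503 were also higher by DESeq2, and of the 1903 lower 1899 were lower.

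Replicate numbers did not pair the libraries: deviations of same-numbered libraries from their group means correlated at 0.066, -0.252 and -0.408, not over 0.1 in every pair, and no cfh1 library correlated best with its own number, although decoy replicate 1 did. With a replicate block 1999 genes were higher and 982 lower, 1456 and 542 at least 2-fold. Of 269 named genes 263 passed the test, and 126 of these did so with each library left out in turn. Single fits lost between 14 (decoy replicate 2) and 133 (cfh1 replicate 1) of them, library totals 51, the block 81 and all other settings at most 8. The cause was not tested. The decoy libraries had quality weights of 0.400, 0.551 and 1.36 and the cfh1 libraries 3.395, 1.23 and 0.799. These weights overlap between the lines, while the biological coefficient of variation was larger in the decoy (0.247 against 0.143). Changes of 1.5-fold were not recovered in simulated data, but far fewer genes were changed there, which makes the adjusted threshold stricter. The simulated rates therefore do not give the smallest change that could pass here. A gene that did not pass may still differ between the lines. At an unadjusted p under 0.05, 4072 genes were higher and 3598 lower.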
